A study of Homo sapiens with 3 samples.

Results

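The expression of 10 genes that are switched on by extracellular signal-regulated kinase (ERK) signaling was followed in HCT116 cells after treatment with siRNAs against *HOXA5* short RNA. They are the phosphatase genes *DUSP4*, *DUSP5* and *DUSP6*, the inhibitor genes *SPRY2*, *SPRY4*, *SPRED1* and *SPRED2*, the transcription factor genes *ETV4* and *ETV5*, and *PHLDA1*. The genes were chosen by name for their known place in the pathway, with earlier results of these data known. Probes were assigned to them by matching the transcript accession of each probe to RefSeq. Of the 21614 genes with a named probe, these are 10, carried by 11 probes, and all 11 probes were well above background on every array. They therefore belong, all 10 of them, to the 12031 genes measured.

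HCT116 is an established human colorectal carcinoma line, and *HOXA5* short RNA is a transcript of the *HOXA6*-*HOXA5* locus that leaves out an exon of *HOXA5*. All cells were of this line and all received an siRNA at 10 nM for 48 h. The groups were control siRNA, siRNA #7 and siRNA #8, the last 2 of which were designed against the exon junction of the short RNA, and 400 ng of RNA per group was labeled with 1 dye and read on 1 array. The array names in the deposit number these siRNAs otherwise than the sample labels do, and the labels were followed. With 1 array per group no difference has a replicate check and no p-value is given for it, and neither the culture nor the array can be told apart from the siRNA. A fall in the level of a transcript and a smaller share of cells that make it cannot be told apart in bulk RNA either.

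ERK is the last kinase of the cascade that runs from growth factor receptors through RAS, RAF and MEK. Its activity switches on genes whose products turn the cascade down again: dual-specificity phosphatases remove the activating phosphates from ERK, and Sprouty and SPRED proteins act on RAS and RAF. Because these transcripts respond to the activity of the pathway, they are widely read as its transcriptional output, in colon cancer cells among others.

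The siRNA sequences are shown because both siRNAs cover the same junction, so that the comparison of siRNA #8 with siRNA #7 is between near neighbors. Each has 21 bases, given 5′ to 3′ as in the oligonucleotide list of the study, which does not state the strand, and capitals mark the 17 bases present in both.
siRNA #7: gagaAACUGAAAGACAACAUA
siRNA #8: AACUGAAAGACAACAUAggcg
The windows differ by 4 bases at each end. No other siRNA against the short RNA was on these arrays.

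The 3 arrays lay on 1 slide and were scanned together, with no saturated gene spot. The 75th percentile of intensity, to which every level below is scaled, was 52.8 (control), 42.1 (siRNA #7) and 42.8 (siRNA #8). Each of the 11 probes was printed on 1 spot per array, so its error was taken from probes of similar signal that were printed 10 times. The resulting spot-to-spot SD covers how an array was printed and scanned, and none of the variation from culture to culture. Of 9 markers of epithelium and colon, 6 were measured (*EPCAM*, *KRT8*, *KRT18*, *KRT19*, *CDH1* and *CDX2*), and *VIL1*, *CEACAM5* and *LGALS4* were not well above background on any array. Their median log2 ratio to control was 0.29 with siRNA #7 and 0.30 with siRNA #8. Of the markers of other cells, *PTPRC*, *COL1A2* and *PECAM1* were not well above background on any array, while *VIM* was so on the control array only (intensity 21.7, against 6.89 with siRNA #7 and 3.49 with siRNA #8). *COL1A1* was well above background on all arrays (intensities 48.1, 28.2 and 35.9, log2 ratios to control of -0.44 and -0.12), as was *DES* (75.1, 83.0 and 71.5, ratios of 0.47 and 0.23), each ratio within 2 spot-to-spot SDs. Whether these differences bear on the ratios below was not tested. The *HOXA5* probe had a log2 ratio to control of -0.36 with siRNA #7 and -0.23 with siRNA #8, each within 2 spot-to-spot SDs. Whether that probe detects the short RNA was not tested, so it does not check the silencing.

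Across the 10 genes, siRNA #8 gave lower levels than control for 9 and a higher level for *PHLDA1* only, with a median log2 ratio of -0.38. With siRNA #7, 7 genes were lower and 3 were higher (*DUSP4*, *DUSP6* and *ETV5*), with a median of -0.23. The median over all 12031 genes was 0.014 with siRNA #7 and 0.0072 with siRNA #8. Lower than control were 48.5% of all genes with siRNA #7 and 49.2% with siRNA #8. These comparisons share the control array, so a single low or high control value moves them together. Set directly against siRNA #7, siRNA #8 gave lower levels for 6 of the 10 genes, where 51.1% of all genes were lower, with a median of -0.21 (all genes, -0.011). That median was -0.10 under spike-in scaling (all genes, 0.10) and -0.08, with 5 of 10 genes lower, when the probes of a gene were averaged.

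**Figure D1:**
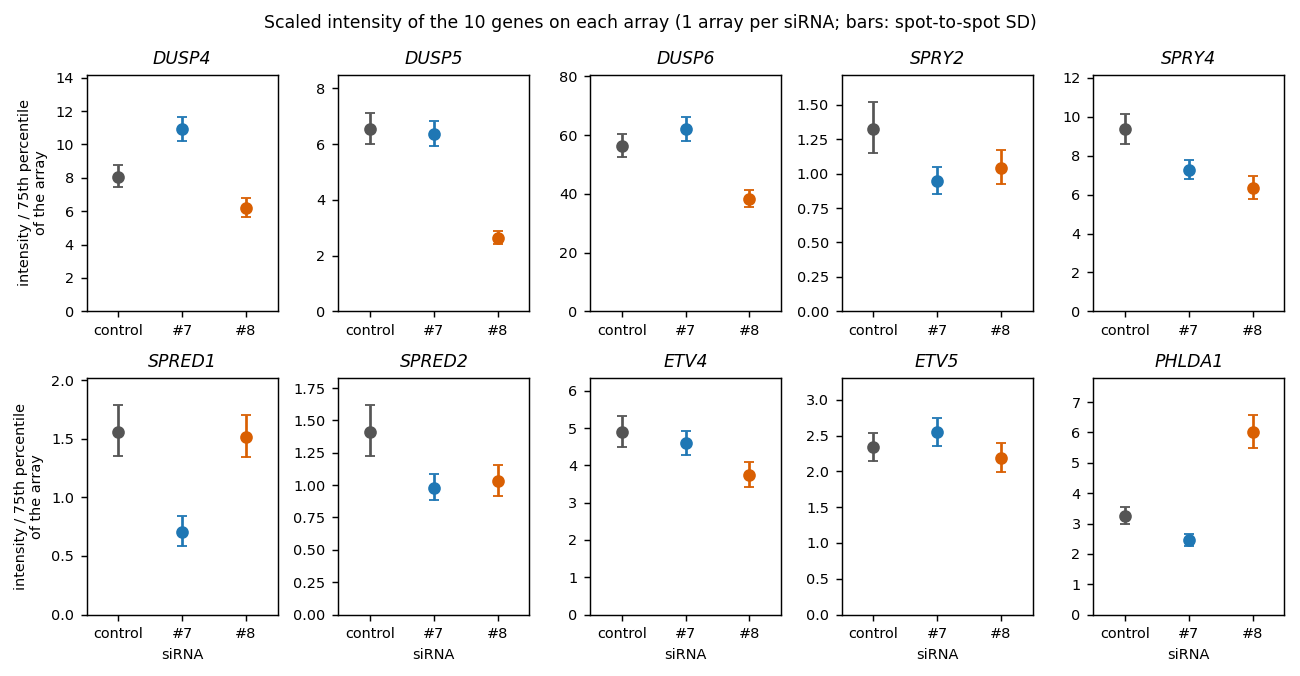
Scaled intensity (intensity divided by the 75th percentile of the array, linear axes from 0) of each gene with control siRNA, siRNA #7 and siRNA #8, where a point is 1 array and a bar is the spot-to-spot SD. The siRNA #8 point is the lowest for *DUSP4*, *DUSP5*, *DUSP6*, *SPRY4*, *ETV4* and *ETV5* and the highest for *PHLDA1*, while *SPRED1* is lowest with siRNA #7.

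Among the genes followed, the MAP kinase phosphatase genes *DUSP4*, *DUSP5* and *DUSP6* were the group in which siRNA #8 gave the lowest level each time. Of the measured phosphatase relatives, described further below, *DUSP1*, *DUSP2* and *DUSP8* were highest with siRNA #8 and *DUSP9* was lowest there. Each of these was within 2 SDs of control with siRNA #8. The order thus did not hold for the whole family. *DUSP5*, a nuclear phosphatase of ERK, had intensities of 345 (control), 268 (siRNA #7) and 113 (siRNA #8). After scaling, these were 6.54, 6.36 and 2.64 times the 75th percentile of their arrays. Control and siRNA #7 lay together and siRNA #8 far below them. Against control the log2 ratio was -0.04 for siRNA #7 (SD 0.16, the spot-to-spot error of this ratio, given in the same way below) and -1.31 for siRNA #8 (SD 0.18), a 2.47-fold lower level. Of all genes, 1.1% had a lower ratio with siRNA #8 than *DUSP5*. Directly against siRNA #7 the ratio was -1.27 (0.17), 2.41-fold lower. The *DUSP5* spot on the siRNA #8 array carried an outlier flag for its local background, though none for the spot itself. If spots with that flag are left out, a rule added after the values were seen, *DUSP5* has no value with siRNA #8, and since each array holds a single spot of this probe, no other spot can stand in.

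*DUSP6*, the cytoplasmic phosphatase that is the best known feedback inhibitor of ERK, had intensities of 2974 (control), 2612 (siRNA #7) and 1636 (siRNA #8). The scaled intensities were 56.3, 62.0 and 38.2. Again siRNA #8 lay below the other arrays, by 1.47-fold from control (log2 ratio -0.56, SD 0.15) and by 1.62-fold from siRNA #7 (-0.70, SD 0.15). The siRNA #7 ratio of 0.14 (0.14) was within 2 SDs of 0. Spots around the *DUSP6* spot were themselves higher with siRNA #7, with a median log2 ratio of 0.33 over 11 neighbors. With the neighbors' median removed, the *DUSP6* ratio was -0.19 with siRNA #7, -0.54 with siRNA #8 and -0.35 for siRNA #8 against siRNA #7.

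*DUSP4*, a nuclear phosphatase of ERK and other MAP kinases, had intensities of 426 (control), 460 (siRNA #7) and 265 (siRNA #8), or 8.08, 10.9 and 6.20 after scaling. Here the control lay between both siRNAs, each step being larger than 2 SDs. The log2 ratio to control was 0.43 with siRNA #7 (0.15) and -0.38 with siRNA #8 (0.18), and siRNA #8 stood 1.76-fold below siRNA #7 (-0.82, SD 0.16). The height of the siRNA #7 step depended on the processing, with a ratio of 0.08 when arrays were scaled on their spike-in controls. With the median of the neighboring spots removed it was 0.28. Neither value was past 2 SDs.

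The 4 Sprouty and SPRED genes were all lower than control with either siRNA, where 48.5% and 49.2% of all genes were lower. *SPRED1* with siRNA #8 was so only within its error (-0.04, SD 0.26). The median log2 ratio of the 4 genes was -0.50 for siRNA #7 and -0.40 for siRNA #8. Of the 4 ratios, 3 were past 2 SDs with siRNA #7 and 1 with siRNA #8, where 14.7% and 16.8% of all genes were lower past 2 SDs. Spots were dim for *SPRY2*, *SPRED1* and *SPRED2*, whose SDs were larger. *SPRY4*, an inhibitor of receptor signaling to RAS and RAF, was brighter, with intensities of 494 (control), 306 (siRNA #7) and 271 (siRNA #8). Scaled, these were 9.36, 7.28 and 6.33. Control was the highest array, and the siRNA arrays did not differ from each other beyond 2 SDs (-0.20, SD 0.16). The ratio to control was -0.36 (0.15) with siRNA #7 and -0.56 (0.18) with siRNA #8. With the median of its neighboring spots removed, the siRNA #7 ratio was -0.15 and no longer past 2 SDs. A second *SPRY4* probe gave only 10.9, 7.71 and 9.97, and its ratios of -0.17 (0.40) and 0.18 (0.41) were within their error. The 2 probes thus disagreed in sign with siRNA #8. Their mean was -0.19 with siRNA #8, and 0.07 for siRNA #8 against siRNA #7.

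*SPRED1*, which brings the RAS inactivator neurofibromin to the membrane, showed another order. Its intensities were 82.1 (control), 29.5 (siRNA #7) and 64.8 (siRNA #8), scaled to 1.55, 0.701 and 1.51. Control and siRNA #8 lay together and siRNA #7 was 2.22-fold below control (log2 ratio -1.15, SD 0.33). With siRNA #8 the ratio was -0.04 (0.26), and against siRNA #7 it was 1.11 (0.31), 2.16-fold higher. Only 1.12% of all genes had a lower ratio than *SPRED1* with siRNA #7. With normexp background correction, run on median in place of processed signals, the ratio with siRNA #7 was -0.59.

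*SPRY2*, a Sprouty inhibitor of the same kind as *SPRY4*, gave 69.8 (control), 39.7 (siRNA #7) and 44.5 (siRNA #8), scaled to 1.32, 0.943 and 1.04. *SPRED2*, the closest relative of *SPRED1*, gave 74.3, 41.3 and 44.0, scaled to 1.41, 0.980 and 1.03. For both genes control was the highest array. The *SPRY2* ratios were -0.49 (0.25) with siRNA #7 and -0.35 (0.26) with siRNA #8, neither past 2 SDs. The *SPRED2* ratio of -0.52 (0.25) with siRNA #7 was just past 2 SDs and that of -0.45 (0.26) with siRNA #8 was not. Between the siRNAs, these genes differed by 0.14 (0.23) and 0.07 (0.23), less than their error.

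*ETV4* and *ETV5*, ETS-family transcription factors of the PEA3 group, act downstream of ERK. *ETV4* had intensities of 258 (control), 193 (siRNA #7) and 160 (siRNA #8), scaled to 4.89, 4.60 and 3.75. Only the distance from control to siRNA #8 passed 2 SDs (-0.38, SD 0.18), and the ratio with siRNA #7 was -0.09 (0.16). *ETV5* had intensities of 123, 107 and 93.3, scaled to 2.33, 2.54 and 2.18. None of its differences passed 2 SDs: the ratios were 0.12 (0.16), -0.10 (0.18) and, between the siRNAs, -0.22 (0.17).

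*PHLDA1*, a pleckstrin-homology-like protein induced by growth factors, was the only one of the 10 genes above control with siRNA #8. Its intensities were 171 (control), 103 (siRNA #7) and 257 (siRNA #8), scaled to 3.24, 2.45 and 6.0. All 3 arrays were separated by more than 2 SDs, with siRNA #8 at the top and siRNA #7 at the bottom. The ratio to control was -0.40 (0.16) with siRNA #7 and 0.89 (0.18) with siRNA #8, which is 1.85-fold higher. With the median of the neighboring spots removed, the siRNA #7 ratio was -0.32 and no longer past 2 SDs. Between the siRNAs the ratio was 1.29 (0.17), 2.45-fold higher with siRNA #8, and 99.2% of all genes had a lower one. *PHLDA1* and *DUSP5* thus stood at opposite ends of the 10 genes in this comparison.

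**Figure D2:**
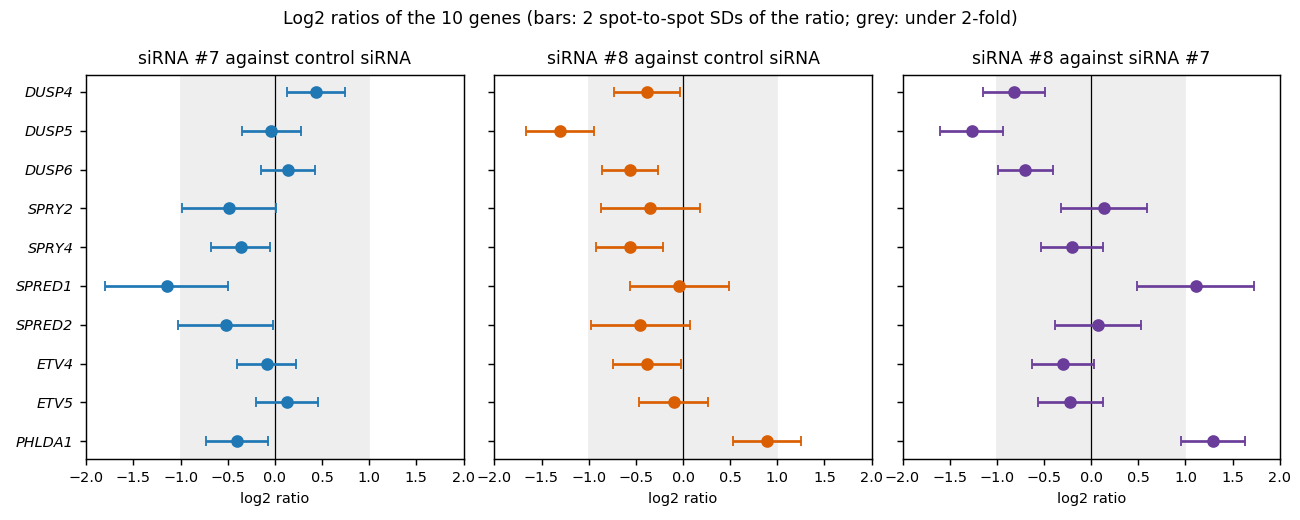
Log2 ratio of each gene for siRNA #7 against control, siRNA #8 against control and siRNA #8 against siRNA #7, where points are single ratios of 1 array to 1 array, bars are 2 spot-to-spot SDs and the grey band marks less than 2-fold. Outside the band lie *SPRED1* with siRNA #7 (-1.15), *DUSP5* with siRNA #8 (-1.31), and *DUSP5*, *SPRED1* and *PHLDA1* between the siRNAs.

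Counted by size, 1 of the 10 genes was at least 2-fold from control with siRNA #7 (*SPRED1*, lower), where 3.77% of all genes were past 2-fold in either direction. With siRNA #8 it was also 1 (*DUSP5*, lower), where 4.98% of all genes were. Between the siRNAs 3 genes passed 2-fold, *DUSP5* lower and *SPRED1* and *PHLDA1* higher with siRNA #8, against 5.64% of all genes. By the looser measure of 2 spot-to-spot SDs, siRNA #7 had 4 genes lower (*SPRY4*, *SPRED1*, *SPRED2* and *PHLDA1*) and 1 higher (*DUSP4*), while 14.7% of all genes were lower and 15.1% higher by that measure. With siRNA #8, 5 were lower (*DUSP4*, *DUSP5*, *DUSP6*, *SPRY4* and *ETV4*) and 1 higher (*PHLDA1*), against 16.8% lower and 14.5% higher of all genes. Between the siRNAs the 3 phosphatase genes were lower and *SPRED1* and *PHLDA1* higher with siRNA #8, against 20.1% lower and 17.1% higher. None of these counts is a test. limma, with both siRNA arrays taken as replicates of 1 silenced group against the single control array, called none of the 10 genes (adjusted p of 1.0 for each, over 18121 probes), none had an unadjusted p under 0.05, and it called 1 probe in all. In that fit the spread of a gene came only from the difference between the siRNA arrays, drawn toward the spread of all probes. That difference was largest for *PHLDA1*, *DUSP5*, *SPRED1* and *DUSP4*, and the lack of calls says little about the 10 genes.

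**Figure D3:**
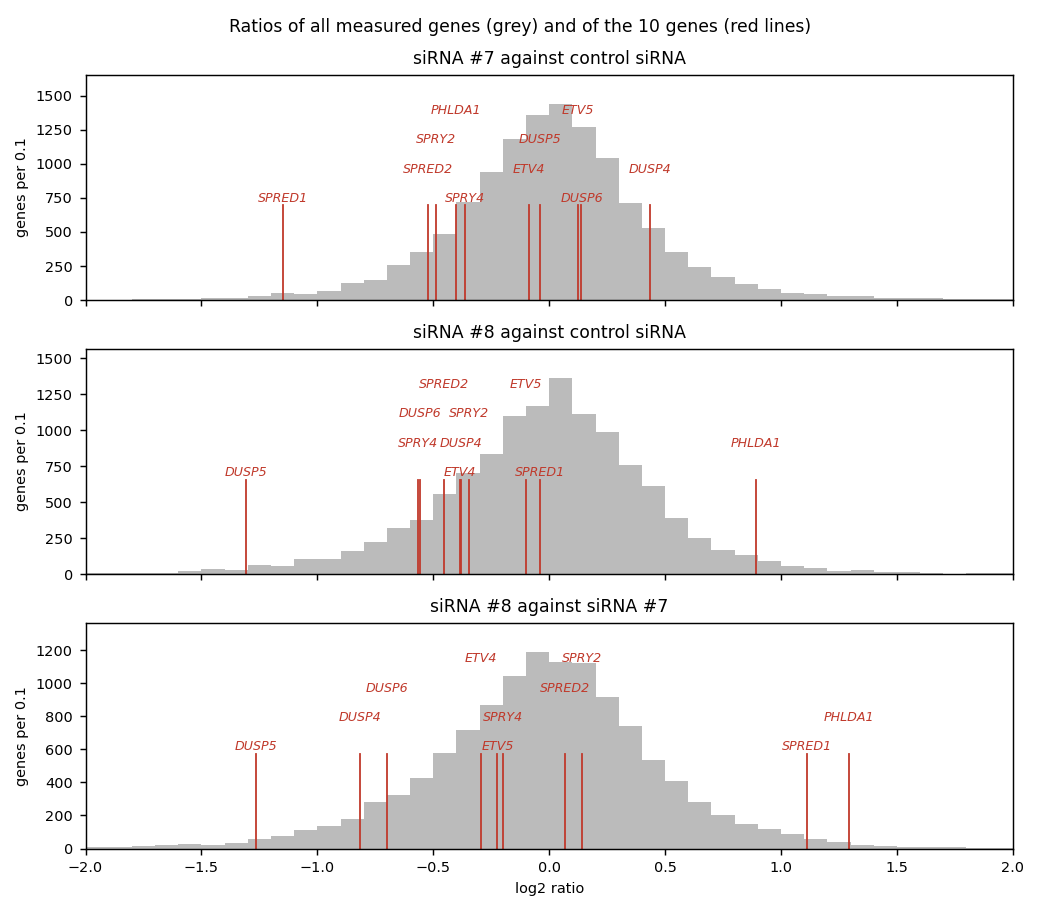
Number of genes per 0.1 of log2 ratio for all 12031 genes (grey bars) in each comparison, with the 10 genes as red lines. Most red lines lie within the body of the distribution, and *SPRED1* with siRNA #7, *DUSP5* with siRNA #8, and *DUSP5*, *SPRED1* and *PHLDA1* between the siRNAs lie in its tails.

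Under 12 alternatives to this processing, the median of the 10 genes lay from -0.58 to -0.17 with siRNA #7 and from -0.63 to -0.32 with siRNA #8. *DUSP5*, *DUSP6*, *DUSP4*, *SPRY2*, *SPRY4*, *SPRED2* and *ETV4* kept their lower level with siRNA #8, and *PHLDA1* its higher one, under each alternative that gave them a value. Looser filters on dim probes kept the same probes, so they could not change these values. *SPRED1* and *ETV5* with siRNA #8, and *DUSP6* and *ETV5* with siRNA #7, changed sign under at least 1 alternative.

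**Figure D4:**
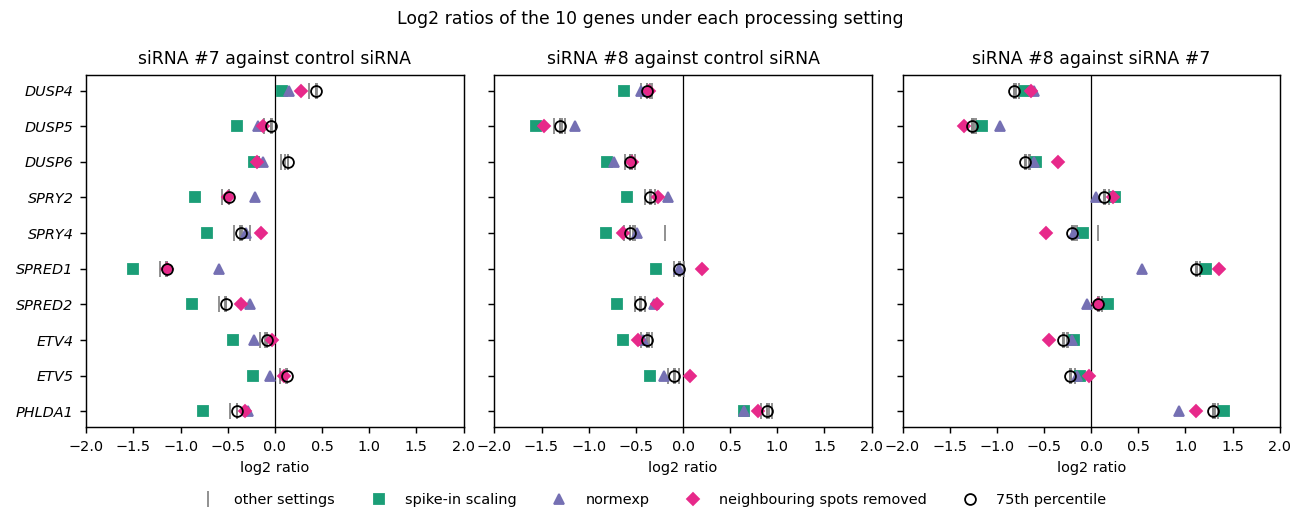
Log2 ratio of each gene under the 75th percentile scaling (open circles) and under 12 alternatives, with spike-in scaling (squares), normexp (triangles) and removal of the neighboring spots' median (diamonds) marked. Spike-in scaling moves every ratio to control lower, and normexp on median signals brings the *SPRED1* ratio with siRNA #7 from -1.15 to -0.59.

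Other transcripts that ERK is known to induce were listed as well, 16 genes, all measured, that include growth factors, surface receptors, early transcription factors and *CCND1*. This list was drawn up with earlier results of these data known, so its counts are not a test. With siRNA #8, 15 of the 16 were lower than control (49.2% of all genes) and 11 were lower past 2 SDs (16.8% of all genes), with a median log2 ratio of -0.77. With siRNA #7, 8 were lower and 8 higher, with a median of -0.01, and 5 were lower and 6 higher past 2 SDs (14.7% and 15.1% of all genes). Between the siRNAs, 15 of 16 were lower with siRNA #8 (51.1% of all genes) and 14 were lower past 2 SDs (20.1% of all genes), with a median of -0.49. Over the 12 alternatives the count lower with siRNA #8 stayed between 14 and 15 of 16, and the median ranged from -1.02 to -0.63. With siRNA #7 the count lower ran from 8 to 12 and the median from -0.36, under spike-in scaling, to 0.08. Under that scaling the median of all genes was -0.34 with siRNA #7 and -0.24 with siRNA #8.

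*EGR1*, an immediate early zinc finger factor, had intensities of 1220 (control), 511 (siRNA #7) and 467 (siRNA #8), and its log2 ratios to control were -0.93 (0.14) and -1.08 (0.16). *IER3*, another immediate early gene, had 10783, 6245 and 4182, with ratios of -0.46 (0.14) and -1.06 (0.15). *VGF*, which encodes a secreted neuropeptide precursor, was lower by smaller amounts, at -0.31 (0.14) and -0.87 (0.16). *TRIB1*, a pseudokinase gene, was the only one of the 16 above control with siRNA #8, at 0.41 (0.15), after 0.80 (0.14) with siRNA #7.

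The other genes of these 16 past 2-fold with siRNA #8 were *CCND1* and *EMP1*, named after their values were seen. *CCND1*, the cyclin D1 gene, whose probe was printed 10 times, had intensities of 776 (control), 714 (siRNA #7) and 297 (siRNA #8), so that its ratio was 0.21 (0.05) with siRNA #7 and -1.08 (0.06) with siRNA #8. The low array was siRNA #8 alone, the order also seen for *DUSP6*. *EMP1*, an epithelial membrane protein gene, had 257, 371 and 95.1, with ratios of 0.85 (0.16) and -1.13 (0.18). Between the siRNAs *CCND1* stood at -1.29 and *EMP1* at -1.99, the only ones of the 16 past 2-fold there.

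The components of the cascade itself, 28 genes from the adaptors to the ERK-bound transcription factors, gave 25 measured genes (*SOS1*, *GAB1* and *KSR1* were not well above background on all arrays). None of the 25 was past 2-fold in any comparison, where 3.77%, 4.98% and 5.64% of all genes were, so few were to be looked for. The median log2 ratio was -0.01 with siRNA #7 and 0.10 with siRNA #8, with 14 and 9 of 25 genes lower (48.5% and 49.2% of all genes). Spike-in scaling turned the siRNA #8 direction, with medians of -0.37 and -0.15 and 21 and 17 of 25 genes lower. The median of all genes also moved under that scaling, to -0.34 and -0.24. Those with the largest mean change were *ELK1*, an ETS factor phosphorylated by ERK, at -0.54 (0.33) and -0.70 (0.34), *PEA15*, which holds ERK in the cytoplasm, at 0.62 (0.23) and 0.36 (0.24), *MAP2K2*, the gene for MEK2, at 0.43 (0.15) and 0.51 (0.17), and *ARAF*, a RAF kinase gene, at 0.44 (0.16) and 0.47 (0.18). For *MAP2K2* and *ARAF* both siRNA arrays were above control by more than 2 SDs, and for *ELK1* only siRNA #8 passed 2 SDs, below control.

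Relatives of the 10 genes in the same families served as a further comparison, 13 genes of which 8 were measured. *DUSP7*, *DUSP10*, *SPRY3* and *SPRED3* were not well above background on any array, and *DUSP16* was so on the control array only. The median of the 8 was 0.06 with siRNA #7 and 0.06 with siRNA #8. Under spike-in scaling it was -0.30 and -0.19 (all genes, -0.34 and -0.24), with 7 of 8 genes lower each time. When probes were averaged per gene, the siRNA #7 median was -0.02. *ETV1*, the remaining member of the PEA3 group, was the only one past 2-fold with siRNA #7, with intensities of 42.3 (control), 10.9 (siRNA #7) and 25.7 (siRNA #8) and ratios of -1.62 (0.33) and -0.42 (0.34). It was low with siRNA #7 and not past 2 SDs with siRNA #8, the order also seen for *SPRED1*, and both probes are dim. The phosphatase genes *DUSP2*, at 0.12 (0.25) and 0.46 (0.24), and *DUSP9*, at 0.44 (0.25) and -0.01 (0.26), stayed within 2 SDs. So did *DUSP1*, at 0.003 (0.08) and 0.12 (0.08), and *DUSP8*, at -0.22 (0.16) and 0.14 (0.18), both named after their values were seen. *DUSP1*, *DUSP2* and *DUSP8* were highest with siRNA #8, while *DUSP9* was lowest there. Between the siRNAs, only *DUSP8* among these phosphatase genes passed 2 SDs, at 0.36 (0.16). *PHLDA3*, a relative of *PHLDA1*, was at 0.33 (0.16) and 0.05 (0.18).

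**Figure D5:**
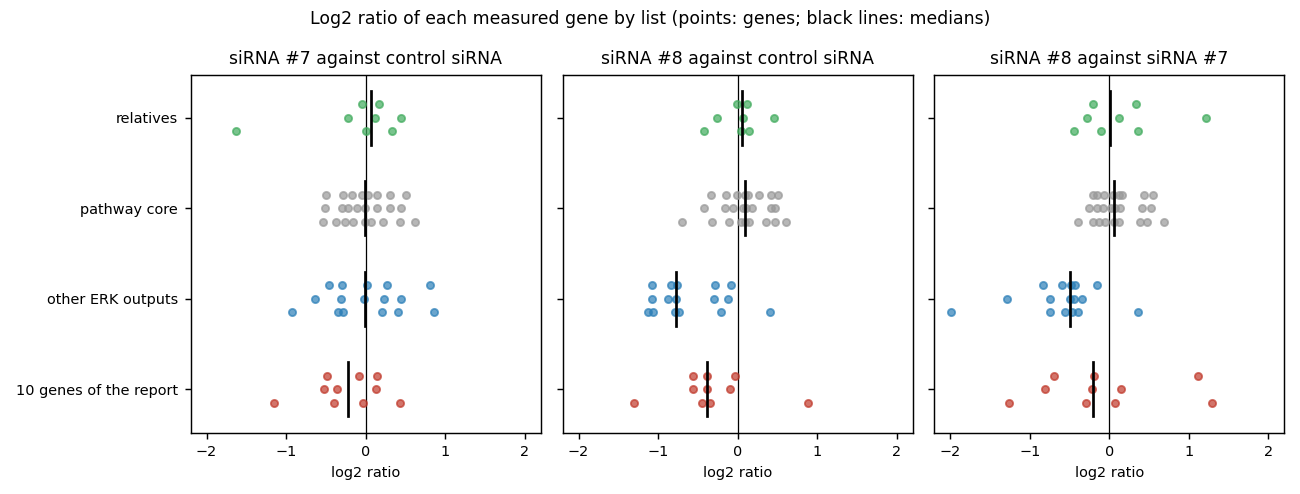
Log2 ratio of each measured gene (points) and the median of each list (black lines) for the 10 genes, the 16 other ERK outputs, 25 genes of the cascade and 8 relatives, in the same 3 comparisons. With siRNA #8 the median of the other ERK outputs is -0.77 and that of the 10 genes -0.38, while the cascade genes center on 0.10. The lists were drawn up with earlier results of these data known.

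Promoters were searched for short motifs, since factors of the ETS and AP-1 families are known targets of ERK. The RefSeq promoter table of GRCh38.p14 (250 bases before to 50 bases after each start) held 9 windows for 6 of the 10 genes, with no entry for *DUSP4*, *DUSP5*, *ETV4* or *ETV5*. The ETS core AGGAAG, searched on both strands, was in 7 of these 9 windows, of 4 genes (*DUSP6*, *SPRY2*, *SPRED1* and *SPRED2*), and in 33.6% of all 35116 windows. TGANTCA, the AP-1 motif on both strands, was in 1 window, of *SPRED2* (7.71% of all), and the CRE motif TGACGTCA, both strands, was in none of the 9 (1.85% of all). Some genes have several windows, so the windows do not count genes, and the share of all genes with a match was not computed. Windows of a gene can also share bases, and a match of these letters describes the sequence only. One stretch of 60 bases is given for *DUSP6*, which was lowest with siRNA #8, for *SPRED1*, which was lowest with siRNA #7, and for *SPRED2*, whose siRNA arrays did not differ beyond 2 SDs, with the motif in capitals and the strand of the gene, 5′ to 3′.
*DUSP6*, chr12:89352679-89352738, minus strand: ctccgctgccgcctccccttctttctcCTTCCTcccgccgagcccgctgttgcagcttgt
*SPRED1*, chr15:38252776-38252835, plus strand: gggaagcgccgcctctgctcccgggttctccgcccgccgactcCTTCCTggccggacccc
*SPRED2*, chr2:65432600-65432659, minus strand: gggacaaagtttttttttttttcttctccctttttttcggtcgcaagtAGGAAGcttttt
The *DUSP6* stretch runs from 237 to 178 bases before the start, and those of *SPRED1* and *SPRED2* are the last 60 bases before it.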

How the data were processed

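HCT116 cells treated with control siRNA, siRNA #7 or siRNA #8 were compared on 1 array each. The intensity of each spot, as deposited by the authors, came from Agilent Feature Extraction 11.5.1.1 and was background subtracted and not scaled between arrays. The authors also deposited log2 values of 21189 probes from GeneSpring, each probe centered on its median, with the scaling not given in the sources used here; these served as an alternative.

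Spots flagged as outliers were left out (409, 413 and 313 per array), repeated spots were averaged per probe, and the level was log2 of intensity divided by the 75th percentile over gene probes of that array (Python 3.11.15, numpy 2.4.6, pandas 2.3.3). Of 50599 probes, 20473, 19069 and 19250 were well above background, which required the flag on at least 50% of the spots of the probe. Probes were kept (18121) if they had a value and were well above background on all arrays. They also had to reach the 20th percentile of intensity on at least 2 arrays. Accessions were matched to RefSeq (GRCh38.p14), which named 30000 of 50593 probes with a value on all arrays. The brightest kept probe stood for a gene. The spot-to-spot SD came from the 902 probes printed 10 times, pooled in 6 ranges of signal, and was 0.18, 0.15 and 0.17 over all ranges. The SD of a ratio combined those of both arrays. Precision is limited by having 1 array per condition.

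No test was made between single arrays. limma 3.58.1 (R 4.3.3), with both siRNA arrays as 1 group, was an alternative. The steps were tested on simulated data. The members, lists and tests were chosen with earlier results of these data known. The genes named are the 10 members, *HOXA5*, markers as a list, and for each other list those at least 2-fold higher, or at least 2-fold lower, with each siRNA (there were none) and at most 4 with the largest mean log2 ratio. Genes named only after their values were seen are marked as such. Alternatives were 4 other scalings (including the 10 E1A spike-in probes), normexp with an offset of 50, the deposited log2 values, all spots kept, other filters, the mean of probes, a 1.5-fold threshold, and removal of the median deviation of spots within 3 rows and 3 columns. Leaving out spots with a background outlier flag was added after seeing the data.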

Additional observations from a re-analysis of the deposited data

Results flagged for a closer look

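*DUSP4* moved in opposite directions with the siRNAs, with a log2 ratio to control of 0.43 with siRNA #7 and -0.38 with siRNA #8. *PHLDA1* did so the other way round, at -0.40 with siRNA #7 and 0.89 with siRNA #8. For each of these genes both ratios were past 2 spot-to-spot SDs under the main scaling. Under normexp the siRNA #7 ratios were 0.15 for *DUSP4* and -0.28 for *PHLDA1*, not past 2 SDs. With the neighbors' median removed they were 0.28 and -0.32, again not past 2 SDs. The *DUSP4* ratio with siRNA #8 was -0.33, not past 2 SDs, when the 75th percentile was taken over detected probes only. With 1 array per siRNA the difference between the siRNAs was not tested. Both genes kept opposite signs under all 12 alternatives, although the *DUSP4* ratio with siRNA #7 was as low as 0.08 with spike-in scaling. Looser filters on dim probes and the mean of probes could not change these ratios.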

How the results depend on the processing

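No paired analysis was possible because there was a single array per siRNA, so that no array could be left out either. Scaling on spike-in controls moved the median log2 ratio of the 10 genes to -0.58 with siRNA #7 and -0.63 with siRNA #8, while the median of all genes became -0.34 and -0.24. The number of the 10 genes past 2-fold became 0 under normexp with siRNA #7 (from 1) and 0 for siRNA #8 against siRNA #7 (from 3). Under normexp an offset of 50 was added to the signal of every probe. The share of all genes past 2-fold was not computed there, so these counts cannot be set against it. The planned normexp on mean signals was run on median signals, the only ones in the files. At a threshold of 1.5-fold the counts were 2 with siRNA #8 and 5 between the siRNAs. The share of all genes past 1.5-fold was not computed, so these counts cannot be set against it. Leaving out spots with a background outlier flag, chosen after seeing the data, removed the *DUSP5* value and left 0 of 9 genes past 2-fold with siRNA #8. With no filter on dim probes the median of all genes was 0.15 with siRNA #7 and 0.14 with siRNA #8. Of 357 single gene values under 12 alternatives, 319 moved by less than their spot-to-spot SD and 38 by more, 17 of these under spike-in scaling, 12 under normexp and 7 with the neighbors removed. Part of the 319 could not move. Each looser filter on dim probes kept the same probe for every gene and so gave 30 unchanged values. Averaging probes could change only *SPRY4*, the only gene with 2 probes. *DUSP6* with siRNA #7 changed sign under those 3 alternatives, at -0.22, -0.12 and -0.19, and *ETV5* with siRNA #7 under the first 2, at -0.23 and -0.05. With siRNA #8, neighbor removal gave 0.21 for *SPRED1* and 0.07 for *ETV5*. Signal limits the dim probes most: for *SPRY2* and *SPRED2* the spot-to-spot SD of a ratio to control was 0.25 with siRNA #7 and 0.26 with siRNA #8.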
